A study of Mus musculus with 4 samples.

Results

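The genes described here are a set of cell cycle genes, made up of 13 genes of DNA replication and 24 genes of mitosis, measured on 4 Affymetrix whole-transcript mouse arrays. A gene was read from its probe set with exactly 1 gene symbol, and from the brightest of these where it had several. In this way 36 of the 37 listed genes were measured, out of 22180 genes in all: all 13 replication genes and 23 mitosis genes, with Ccnb1 not analysed here. The study profiled cells from C57Bl/6 mice aged 8 to 10 weeks, with 1 array for each of 4 groups. The groups were T cells of the colon lamina propria (the tissue under the epithelium), intraepithelial lymphocytes (IEL, the lymphocytes lodged between gut epithelial cells) of the small intestine, colon IEL of unmanipulated mice, and colon IEL of recolonized mice. The recolonized mice drank vancomycin, ampicillin, neomycin and metronidazole for 7 days and were then given back bacteria of untreated littermates for 7 days. All 4 samples were T cells enriched by magnetic negative selection with an added antibody against EpCAM, from pooled cells of 10 mice (5 male and 5 female, with it unstated whether each array had a pool of its own), and mice on antibiotics without recolonization were not among the groups. There are no replicates, so differences are given in log2 units without error or test, and the number of arrays limits the precision.

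A dividing cell first copies its DNA and then separates the copies. At origins of replication the MCM2 to MCM7 proteins form the ring of the replicative helicase, which GINS and CDC45 switch on, while PCNA clamps the polymerases to DNA and thymidylate synthase, thymidine kinase and ribonucleotide reductase supply the nucleotides. Mitosis is driven by CDK1 with cyclins A and B, by the Polo and Aurora kinases, and by the spindle, kinetochore and checkpoint proteins that line up and part the chromosomes. In the gut, the crypts of the epithelium hold some of the most rapidly dividing cells of the body, whereas most resident lymphocytes are at rest and divide when activated.

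Markers were set against the labels first. The array with the label of lamina propria T cells had Cd3e, part of the CD3 signalling complex of T cells, at a level of 3.72 against 9.17 to 9.49 on the IEL arrays, and the 12 epithelial markers at a median of 8.21 against 4.40 to 5.53. Since these levels oppose the label, the name used here is the LP-labelled array (LP, lamina propria). On this array the 13 markers of crypt stem and progenitor cells had a median of 4.07 against 2.44 to 2.65, with the stem cell receptor Lgr5 at 4.07 against 1.70 to 2.04, the progenitor transcription factor Sox9 at 6.04 against 2.24 to 3.04 and Prom1 at 8.08 against 2.30 to 2.74. Much of the crypt list did not follow. Of the 13 crypt markers, only Lgr5, Sox9, Cdca7, Slc12a2, Ephb3 and Prom1 were at least 2-fold higher on the LP-labelled array than in colon IEL. Olfm4 was at 2.24 on the LP-labelled array and at 2.0 to 2.47 on the IEL arrays. Smoc2 and Axin2 were highest in colon IEL, and Msi1 was lower on the LP-labelled array than on each IEL array. The IEL arrays also carried epithelial signal. The log2 of the summed linear levels of the 12 epithelial markers was 12.28 on the LP-labelled array. It was 11.36 in small intestinal IEL, 8.28 in colon IEL and 9.22 in recolonized colon IEL. Krt20 and Vil1 were higher in small intestinal IEL (9.93 and 9.43) than on the LP-labelled array (9.82 and 8.51), and the other epithelial markers lower. The colon IEL array of unmanipulated mice carried some red cell genes, with Slc4a1 at 7.93 against 2.32 to 2.64 elsewhere. Not all markers of the red cell list followed, as Tfrc was lowest on that array, at 2.65 against 2.92 to 6.02.

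Cell cycle genes were highest on the LP-labelled array. Of the 36 members, 31 had their highest level there, including 22 of 23 mitosis genes and 9 of 13 replication genes; over all genes the share with the highest level on that array was 29.1%. The median level of the mitosis genes was 4.0 on that array, 2.73 in small intestinal IEL, 2.65 in colon IEL and 2.70 in recolonized colon IEL. The replication genes stood at medians of 4.20, 3.89, 3.39 and 3.10 in the same order. The median over all genes was between 2.18 and 2.41 on the 4 arrays, so the mitosis genes lay close to the array median on each IEL array: 18 of 23 were at or above it in small intestinal IEL, 14 in colon IEL and 17 in recolonized colon IEL, against 23 of 23 on the LP-labelled array. In such pools, fewer dividing cells and less RNA per dividing cell cannot be told apart.

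**Figure D1:**
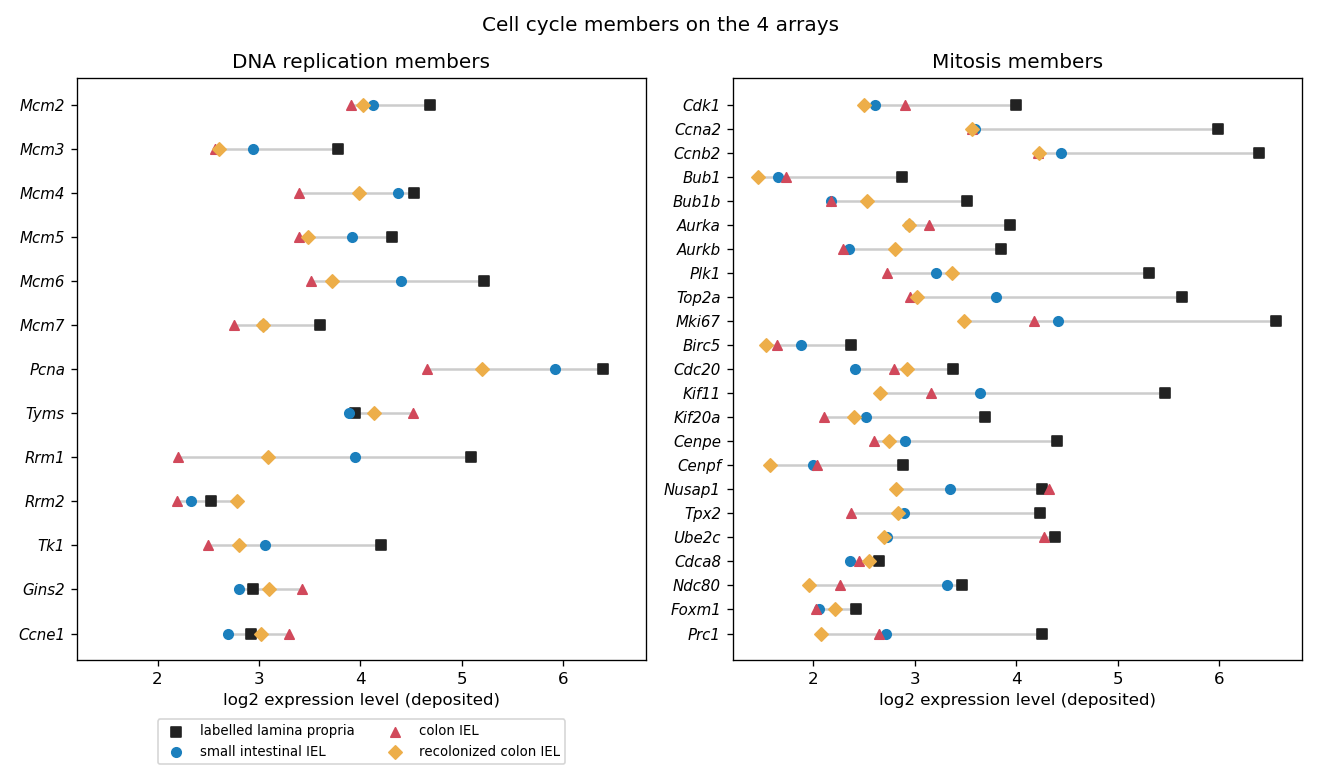
Log2 level (x axis, as deposited) of each measured cell cycle gene on the 4 arrays, 1 point per array, with replication genes on the left, mitosis genes on the right and a grey line from the lowest to the highest array. Black squares, the LP-labelled array, lie farthest right for 22 of 23 mitosis genes and 9 of 13 replication genes.

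The medians of the replication and mitosis genes parted when each gene was placed by its rank. On the percentile scale of each array, where 100 is the brightest gene, the median replication gene was at 77.2 on the LP-labelled array, 76.7 in small intestinal IEL, 77.6 in colon IEL and 69.6 in recolonized colon IEL. The median mitosis gene was at 75, 60.8, 58.1 and 59.9 in the same order. The median replication rank was thus about as high in unmanipulated IEL as on the LP-labelled array, while the median mitosis rank was lower on all 3 IEL arrays. Single replication genes did not hold their rank. In colon IEL Mcm2, Tyms, Gins2 and Ccne1 ranked higher than on the LP-labelled array and the other replication genes lower, such as Rrm1 at 41.8 against 85.5 and Tk1 at 53.2 against 77.2. In small intestinal IEL only Mcm4 and Tyms ranked higher. The 37 other replication genes did not hold level, with median percentiles of 66.9, 62.2, 56.5 and 56.7, and the 54 other mitosis genes were at 65.2, 51.8, 45.8 and 44.6.

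The promoters of replication and mitosis genes differed in their shares of E2F and CHR motifs, whereas CCAAT was frequent in both. Replication genes are known targets of E2F factors, and mitosis genes of the DREAM and MuvB complexes, which bind the cell cycle genes homology region (CHR) and often act beside CCAAT boxes bound by NF-Y. Promoter windows of RefSeq (GRCm38.p6), from 250 bases before to 50 bases after the start, were matched for 29 of the 36 members; Mcm4, Gins2, Ccna2, Aurkb, Kif20a, Tpx2 and Foxm1 had none. Searched on both strands, the E2F motifs TTTCCCGC or TTTGGCGC were in 4 of 11 replication promoters (36.4%) and in 0 of 18 mitosis promoters, against 1.63% of all 27025 promoters. The CHR motifs TTTGAA or TTCGAA were in 15 of 18 mitosis promoters (83.3%) and 2 of 11 replication promoters (18.2%), against 19.4% of all. CCAAT was in 15 of 18 mitosis and 8 of 11 replication promoters (83.3% and 72.7%), against 37.9% of all. The split was less sharp outside the set. There E2F motifs were in 25.8% of the other replication and 11.1% of the other mitosis promoters, and CHR motifs in 29% and 71.1%. None of these motifs contains another, though neighbouring matches can share an end base, and a match is a description of the sequence only. The 150 bases just before the start are printed for genes whose levels are described next, with matches to any of these motifs in capitals; a match on the opposite strand reads as its reverse complement, such as ATTGG for CCAAT or TTCAAA for TTTGAA.
Mcm6 (chr1:128359706-128359855, - strand): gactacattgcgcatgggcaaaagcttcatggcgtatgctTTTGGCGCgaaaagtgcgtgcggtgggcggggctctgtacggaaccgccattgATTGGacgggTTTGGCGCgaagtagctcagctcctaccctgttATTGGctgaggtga
Rrm1 (chr7:102441545-102441694, + strand): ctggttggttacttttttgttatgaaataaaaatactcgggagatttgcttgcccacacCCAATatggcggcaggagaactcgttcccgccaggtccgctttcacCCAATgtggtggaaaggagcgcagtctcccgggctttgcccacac
Cdk1 (chr10:69352913-69353062, - strand): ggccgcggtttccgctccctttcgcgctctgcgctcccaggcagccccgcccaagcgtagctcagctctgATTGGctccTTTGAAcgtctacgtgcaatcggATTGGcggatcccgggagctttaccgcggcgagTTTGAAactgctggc
Top2a (chr11:99024190-99024339, - strand): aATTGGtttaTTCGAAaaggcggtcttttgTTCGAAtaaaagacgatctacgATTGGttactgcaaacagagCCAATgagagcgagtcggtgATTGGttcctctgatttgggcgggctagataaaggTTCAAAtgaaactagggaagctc
Mki67 (chr7:135716380-135716529, - strand): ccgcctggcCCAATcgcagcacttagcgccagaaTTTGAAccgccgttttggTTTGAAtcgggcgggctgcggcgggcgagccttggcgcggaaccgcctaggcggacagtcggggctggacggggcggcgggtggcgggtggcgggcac
Kif11 (chr19:37376232-37376381, + strand): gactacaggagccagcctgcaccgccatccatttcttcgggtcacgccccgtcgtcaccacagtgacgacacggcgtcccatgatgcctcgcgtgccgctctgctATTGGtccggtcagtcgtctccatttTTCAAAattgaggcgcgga
Ube2c (chr2:164769779-164769928, + strand): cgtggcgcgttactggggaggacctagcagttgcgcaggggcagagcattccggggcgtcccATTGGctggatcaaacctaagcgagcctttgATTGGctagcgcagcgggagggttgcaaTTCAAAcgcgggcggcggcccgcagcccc
Mcm6 shows a pair of E2F motifs beside CCAAT boxes, Rrm1 CCAAT boxes only, and the 5 mitosis promoters both CHR and CCAAT motifs.

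**Figure D2:**
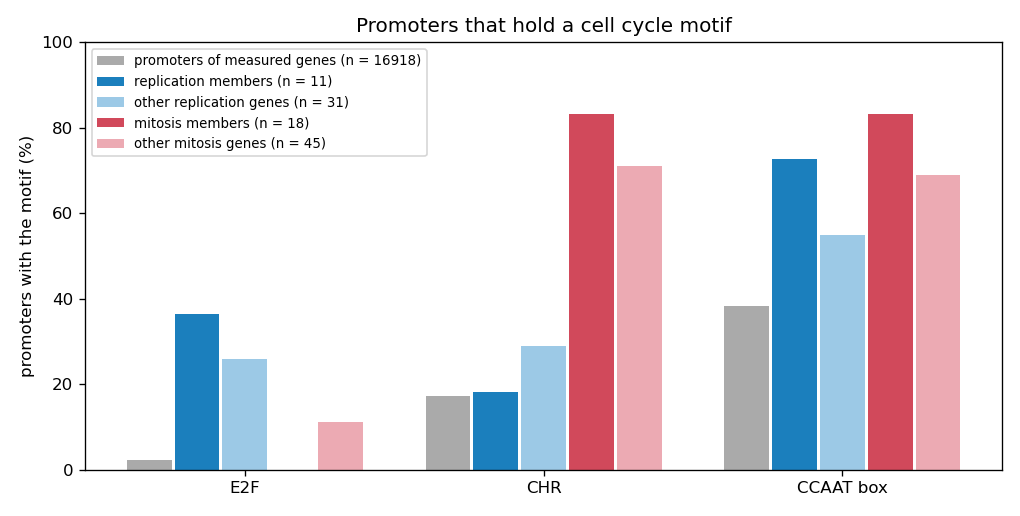
Share of promoters (y axis, percent) that hold each class of motif (x axis), for all measured genes, the replication and mitosis members and the other replication and mitosis genes, with the number of promoters in the key. The CHR bars are high for the mitosis lists (83.3% and 71.1%) and the E2F bars for the replication lists (36.4% and 25.8%). The E2F bar of the other mitosis genes is at 11.1% and the CHR bar of the other replication genes at 29%.

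Among the helicase genes, the LP-labelled array had the highest level for all 6 MCM subunits. Mcm6 was at 5.22 there, 4.40 in small intestinal IEL, 3.51 in colon IEL and 3.72 in recolonized colon IEL. Mcm2 was at 4.69, 4.12, 3.91 and 4.02, and Mcm4 at 4.53, 4.37, 3.40 and 3.99, in the same order. For these 3 genes small intestinal IEL came next after the LP-labelled array and unmanipulated colon IEL last. Mcm3 was at 3.78 against 2.56 to 2.94 on the IEL arrays, Mcm5 at 4.31 against 3.39 to 3.91, and Mcm7 at 3.60 against 2.76 to 3.04. Gins2, a subunit of the GINS complex, ran the other way, at 2.94 on the LP-labelled array, 2.80 in small intestinal IEL, 3.43 in colon IEL and 3.10 in recolonized colon IEL.

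The clamp Pcna was at 6.39 on the LP-labelled array, 5.92 in small intestinal IEL, 4.66 in colon IEL and 5.20 in recolonized colon IEL. On the percentile scale it hardly moved, with 94.0, 93.3, 92.9 and 94.0. Of the nucleotide genes, Rrm1, the large subunit of ribonucleotide reductase, differed most, at 5.09, 3.95, 2.20 and 3.09; unmanipulated colon IEL fell below the array median. Tk1, thymidine kinase, was at 4.20 on the LP-labelled array and at 2.50 to 3.06 on the IEL arrays. Tyms, thymidylate synthase, was highest in colon IEL, at 3.94, 3.89, 4.51 and 4.13 in the order used for Pcna. Rrm2, the small subunit of the same reductase as Rrm1, stayed between 2.19 and 2.79, and Ccne1, the cyclin that starts S phase, between 2.69 and 3.29. The nucleotide genes therefore did not share a pattern over the arrays.

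Of the mitotic drivers, Ccna2 (cyclin A2) was at 5.98 on the LP-labelled array and at 3.60, 3.56 and 3.56 in small intestinal, colon and recolonized colon IEL. Ccnb2 (cyclin B2) was at 6.39 against 4.44, 4.22 and 4.22, and the Polo kinase Plk1 at 5.31 against 3.20, 2.72 and 3.36. These 3 genes had 1 high array and 3 IEL arrays within 0.64 of each other. Cdk1, the kinase of these cyclins, was at 4.0 against 2.61, 2.90 and 2.50. Foxm1, a transcription factor of mitotic genes, was at 2.42 against 2.05, 2.03 and 2.21, below the array median on all 3 IEL arrays.

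Mki67, which encodes the proliferation marker Ki-67, was at 6.56 on the LP-labelled array, 4.41 in small intestinal IEL, 4.18 in colon IEL and 3.49 in recolonized colon IEL. Top2a, the topoisomerase that untangles sister chromosomes, was at 5.63, 3.80, 2.95 and 3.02. Kif11, the motor that pushes spindle poles apart, was at 5.46, 3.64, 3.16 and 2.66, and Prc1, which bundles the microtubules of the central spindle, at 4.26, 2.72, 2.65 and 2.08. These 4 genes had their second highest level in small intestinal IEL. Kif20a, a motor of cell division, was at 3.69 on the LP-labelled array and at 2.11 to 2.52 on the IEL arrays.

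The Aurora kinases Aurka and Aurkb were at 3.94 and 3.85 on the LP-labelled array and at 2.94 to 3.14 and 2.29 to 2.80 on the IEL arrays. Their partners Tpx2, which activates Aurora A at the spindle, Birc5 (survivin) and Cdca8 (borealin) were at 4.23, 2.37 and 2.65 on that array, against 2.37 to 2.90, 1.53 to 1.88 and 2.36 to 2.55. Birc5 was below the array median on all 3 IEL arrays, and Cdca8 was near it. The checkpoint kinases Bub1 and Bub1b were at 2.88 and 3.51 against 1.46 to 1.73 and 2.17 to 2.53. At the kinetochore, Cenpe was at 4.40 against 2.59 to 2.90 and Cenpf at 2.88 against 1.57 to 2.04. Ndc80, which ties kinetochores to microtubules, was at 3.47 and 3.32 on the LP-labelled array and in small intestinal IEL, and at 2.27 and 1.96 in colon and recolonized colon IEL. It was the only mitosis gene besides Cdca8 and Foxm1 to differ by under 0.40 between the LP-labelled array and small intestinal IEL.

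Each IEL array was then set against the LP-labelled array; the 3 comparisons share that array and are not independent of each other. Counts took in genes that reached the median of all genes on whichever array of a pair was brighter for them (the level limit), which held for all 36 members, and a difference counted from 2-fold (1 log2 unit) upward. On the LP-labelled array 36 members were at or above the array median, against 31 in small intestinal IEL, 25 in colon IEL and 30 in recolonized colon IEL. Some genes counted as lower in colon IEL, such as Rrm1, Bub1b and Tpx2, thus passed the limit only through the LP-labelled array. In small intestinal IEL 0 members were higher and 17 lower, 2 of 13 replication genes and 15 of 23 mitosis genes, where 8.76% of all genes tested were higher and 15.7% lower. In colon IEL 0 were higher and 21 lower, 6 replication and 15 mitosis genes, where 10.5% of all genes tested were higher and 34.7% lower. In recolonized colon IEL 0 were higher and 22 lower, 5 replication and 17 mitosis genes, beside 9.41% and 30.3% of all genes tested. The share of mitosis genes counted as lower was 65.2% in small intestinal IEL, 65.2% in colon IEL and 73.9% in recolonized colon IEL, each above the share of all genes; that of replication genes was 15.4%, 46.2% and 38.5%, nearer to it. Of 9 reference genes (housekeeping genes such as Tbp and Hprt), 1, 5 and 4 were also lower by 2-fold or more, with median differences of −0.29, −1.25 and −0.95; in colon IEL they were thus about as far down as the mitosis genes.

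The median difference of the mitosis genes was −1.34 in small intestinal IEL, −1.34 in colon IEL and −1.45 in recolonized colon IEL. For the replication genes it was −0.47, −0.92 and −0.66. All genes above the level limit had medians of −0.17, −0.44 and −0.38, and all 22180 genes 0.00, 0.10 and 0.08. The replication median therefore stood above the mitosis median by 0.87, 0.42 and 0.78. The gap of 0.42 in colon IEL was smaller than the SD of ribosomal protein genes in that comparison (0.52) and has no called direction. The differences from the LP-labelled array had an SD of 0.37, 1.01 and 0.73 over 13 replication genes. Over 23 mitosis genes the SD was 0.61, 0.83 and 0.78, so single genes of both kinds overlapped widely. The crypt markers that were also higher on the LP-labelled array (7 of 13 at least 2-fold in the comparison with small intestinal IEL, 6 of 13 with each colon array) moved with these differences, as did all or nearly all of the 12 epithelial markers (10, 12 and 12); the part of these cells in the result was not tested.

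**Figure D3:**
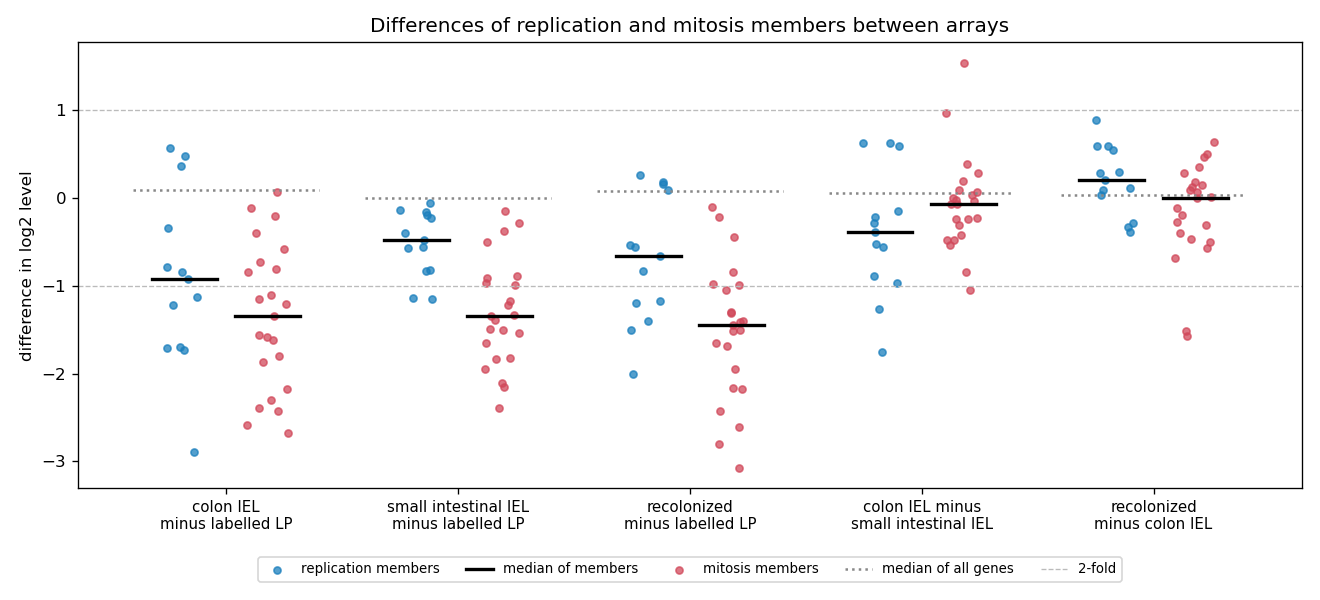
Difference in log2 level between pairs of arrays (y axis), 1 point per gene, for replication genes (blue) and mitosis genes (red), with the median of each as a black bar, the median of all genes dotted and 2-fold dashed. In the 3 comparisons with the LP-labelled array the mitosis medians are −1.34 to −1.45 and the replication medians −0.47 to −0.92; in the other comparisons both medians lie between −0.38 and 0.21.

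The sizes moved with the scaling of the arrays. With quantile normalization the mitosis median was −1.0 in small intestinal IEL, −1.09 in colon IEL and −1.06 in recolonized colon IEL, and the replication median was −0.18, −0.21 and 0.00. After lowess, which fits the difference along mean level, the mitosis median was −1.25, −1.11 and −1.10 and the replication median −0.20, −0.28 and −0.09. Centring on the median of all genes above the level limit gave −1.16, −0.90 and −1.07 for mitosis and −0.30, −0.48 and −0.29 for replication. Counts under quantile normalization were 0 higher and 12 lower in small intestinal IEL, 3 higher and 14 lower in colon IEL, and 0 higher and 15 lower in recolonized colon IEL. The shares of all genes under the same normalization were 8.95% higher and 9.13% lower, 17.8% and 18.5%, and 14.4% and 15.8%. The reference genes then had medians of 0.00, −0.23 and −0.37. Under all 4 scalings, 12 mitosis genes and 0 replication genes were at least 2-fold lower in small intestinal IEL; they were Ccna2, Ccnb2, Bub1, Bub1b, Aurkb, Plk1, Top2a, Mki67, Kif11, Cenpe, Ube2c and Prc1. In colon IEL 9 mitosis genes (Ccna2, Aurkb, Plk1, Top2a, Kif11, Kif20a, Cenpe, Tpx2 and Prc1) and 2 replication genes (Rrm1 and Tk1) were, and in recolonized colon IEL 11 mitosis genes and Rrm1. Of all genes, 9% met this in small intestinal IEL, 15.1% in colon IEL and 14.2% in recolonized colon IEL. Some of these members were below the median of the IEL array and passed the level limit only through the LP-labelled array. They were Bub1 and Bub1b in small intestinal IEL, Aurkb, Kif20a, Tpx2 and Rrm1 in colon IEL, and Bub1, Ndc80 and Prc1 in recolonized colon IEL.

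**Figure D4:**
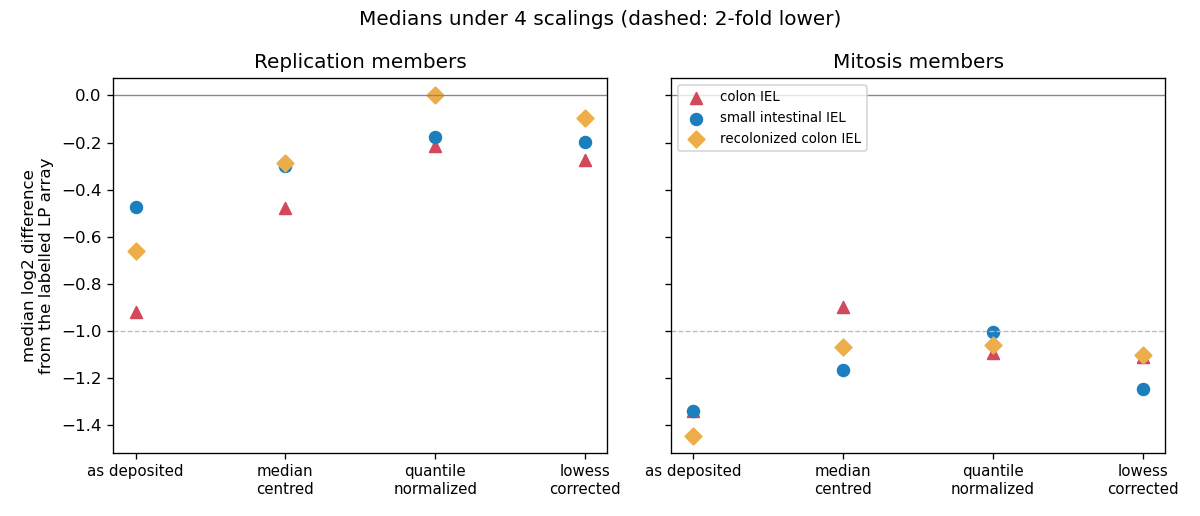
Median log2 difference from the LP-labelled array (y axis) of the 13 replication genes (left) and the 23 mitosis genes (right) for each IEL array under 4 scalings (x axis). The mitosis medians stay between −0.90 and −1.45 and the replication medians between −0.92 and 0.00.

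As deposited, genes of the same processes outside the set showed the same order with smaller medians. The 54 other mitosis genes measured had median differences from the LP-labelled array of −0.77 in small intestinal IEL, −0.88 in colon IEL and −0.91 in recolonized colon IEL, with 16, 23 and 26 of the 50 above the level limit at least 2-fold lower and 0, 1 and 1 higher. The 37 other replication genes had −0.29, −0.46 and −0.40, with 3, 5 and 9 of 33 lower and 0 higher. Those shares for the other mitosis genes, 32%, 46% and 52%, were above the shares of all genes given earlier, and those for the other replication genes, 9.09%, 15.2% and 27.3%, were below them. Among the former, Cks2, a small CDK-binding protein, was at 5.05 on the LP-labelled array and at 2.64, 1.76 and 2.76 in small intestinal, colon and recolonized colon IEL. Ect2, which triggers the cleavage furrow, was at 5.61 against 3.41, 2.53 and 2.58. Among the latter, Prim1, the catalytic subunit of primase, was at 3.97 against 2.51, 2.16 and 2.22, whereas Rfc2, a subunit of the clamp loader, was at 4.76 and 4.46 on the LP-labelled array and in small intestinal IEL and at 2.58 and 2.25 on the colon arrays. The other lists thus also had lower medians for mitosis than for replication genes, by 0.48, 0.42 and 0.51. Under quantile normalization the other mitosis genes had medians of −0.60, −0.84 and −0.83 and the other replication genes −0.19, −0.32 and −0.41. The other replication genes then lay lower than the replication members, at −0.18, −0.21 and 0.00, and they did so after lowess too.

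**Figure D5:**
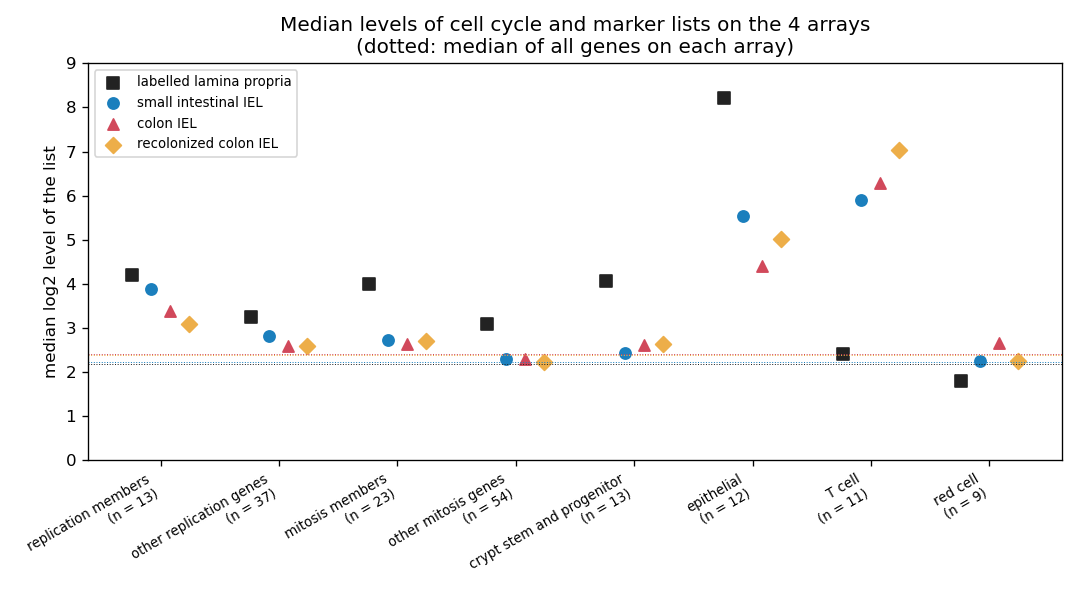
Median log2 level (y axis) of cell cycle and marker lists (x axis, with the number of genes) on the 4 arrays; dotted lines are the medians of all genes. The mitosis members, the other mitosis genes and the crypt markers are highest on the LP-labelled array (4.0, 3.10 and 4.07), where the T cell markers are at 2.41.

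Regulators upstream of S phase and mitosis differed between colon IEL and the LP-labelled array at shares near those of all genes: 4 of 8 G1 cyclin and kinase genes, 41.2% of the E2F, Rb and DREAM genes and 38.5% of the inhibitors and quiescence genes were lower, beside 34.7%. Of 8 G1 cyclin and kinase genes, 4 were at least 2-fold lower and 0 higher, led by the phosphatase Cdc25a at 2.14 against 5.04 and cyclin D1 (Ccnd1) at 3.24 against 5.17; their median of −1.13 turned to 0.21 under quantile normalization and 0.16 after lowess. Of 17 E2F, Rb and DREAM genes above the level limit, 7 were lower and 1 higher, including E2f5 at 2.15 against 5.41 and E2f8 at 2.96 against 5.32. Of 13 inhibitors and quiescence genes 5 were lower and 2 higher, with the antiproliferative Tob1 at 3.20 against 7.21, Btg2 at 3.57 against 7.20 and the CDK inhibitor p21 (Cdkn1a) at 5.25 against 7.73. The higher ones were Klf2, a quiescence factor, at 5.25 against 2.93, and the CDK inhibitor gene Cdkn2a at 3.62 against 2.52. Under quantile normalization the counts became 2 higher and 1 lower for the G1 genes, 2 and 3 for the E2F, Rb and DREAM genes, and 5 and 3 for the inhibitors and quiescence genes. Of all genes tested, 17.8% were then higher and 18.5% lower, and as deposited 10.5% were higher.

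The next comparison, of colon with small intestinal IEL, concerns the gut segment. Most cell cycle genes differed by less than 2-fold. Of 31 members above the level limit, 1 was at least 2-fold higher in colon IEL (Ube2c) and 3 were lower (Pcna, Rrm1 and Ndc80), where 5.98% of all genes tested were higher and 24.4% lower. The median difference was −0.38 for replication and −0.06 for mitosis genes, beside −0.30 for all genes above the level limit, and the mitosis median turned to 0.23 after centring. Both medians were smaller than the SD of ribosomal protein genes in that comparison (0.51) and have no called direction. When recolonized colon IEL took the place of unmanipulated colon IEL, 0 members were higher and 1, Ndc80, lower, beside 4.76% and 17.9% of all genes, and the medians were −0.26 and −0.12. Among the other lists, 4 of 29 other mitosis genes were higher and 1 lower, the higher being Cdc25b, Pttg1, Cenpm and Spc24 and the lower Bub3, at 5.17 against 6.29; 0 of 27 other replication genes were higher and 2 lower, Rfc2 and Pola2. Colon IEL also had 9 of 12 epithelial markers lower by 2-fold or more, and the 9 B cell markers stood at a median of 3.17 there against 6.24 in small intestinal IEL. Stromal markers were higher in colon IEL by 2-fold or more in 6 of 10, with a median difference of 2.01, and so were 3 of 7 red cell markers above the level limit. The part of these 4 marker groups in the values was not tested.

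The last comparison, of recolonized with unmanipulated colon IEL, concerns antibiotics followed by the return of bacteria. Of 31 members above the level limit, 0 were at least 2-fold higher in recolonized colon IEL and 2 were lower, where 6.04% of all genes tested were higher and 3.06% lower. The median difference was 0.21 for the replication genes, 10 of 13 being above 0, and 0.00 for the mitosis genes, with 11 above and 11 below 0. All genes above the level limit had a median of 0.13. The replication and mitosis medians were smaller than the SD of ribosomal protein genes in that comparison (0.57) and have no called direction. Rrm1 differed by 0.89, Plk1 by 0.64, Rrm2 by 0.60 and Mcm4 by 0.59, whereas Mki67 differed by −0.69 and Prc1 by −0.57. The mitosis median was −0.18 under quantile normalization, −0.13 with centring and −0.15 with lowess. Recolonized colon IEL also had 5 of 12 epithelial markers higher and 5 of 9 B cell markers lower by 2-fold or more, and their part was not tested.

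The 2 lower genes were Ube2c, the ubiquitin-conjugating enzyme that works with the anaphase-promoting complex, and Nusap1, a microtubule binder of the spindle. Ube2c was at 4.28 in unmanipulated colon IEL, 2.70 in recolonized colon IEL, 2.73 in small intestinal IEL and 4.38 on the LP-labelled array. Nusap1 was at 4.32, 2.81, 3.35 and 4.26 in that order. As deposited, both thus stood about as high in unmanipulated colon IEL as on the LP-labelled array, unlike Cdc20, the activator of the anaphase-promoting complex, at 2.79, 2.93, 2.41 and 3.37. With other scalings they stood higher in unmanipulated colon IEL. The difference from the LP-labelled array was 1.09 for Ube2c and 1.23 for Nusap1 under quantile normalization, 1.04 and 1.19 after lowess, and 0.33 and 0.50 with centring. The differences of recolonized from unmanipulated colon IEL, −1.58 for Ube2c and −1.51 for Nusap1, passed 2-fold under all 4 scalings, beside 2.98% of all genes that were lower by this rule.

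Some cell cycle genes outside the set were likewise lower in recolonized than in unmanipulated colon IEL, and others, such as Myc and Rbl2, were higher. Of all genes tested, 3.06% were at least 2-fold lower and 6.04% higher. The lower genes named next were picked for their large differences and had their highest level of the 4 arrays in unmanipulated colon IEL. Tfdp2, which encodes a dimerization partner of E2F factors, was at 6.73 in unmanipulated colon IEL and at 3.26 in recolonized colon IEL, 4.43 in small intestinal IEL and 5.13 on the LP-labelled array. Cdc25b, a phosphatase that activates CDK1, was at 4.49 against 2.80, 2.88 and 3.35, and Pttg1 (securin) at 3.91 against 2.72, 2.81 and 2.95. Some red cell markers moved with these values: 3 of 9 measured (Slc4a1, Fech and Slc25a37) were at least 2-fold higher in unmanipulated than in recolonized colon IEL. The log2 of the summed linear levels of all 9 was 11.14 in unmanipulated colon IEL against 6.26 to 7.33 on the other arrays. Tfrc, Kel and Rhag were not higher in unmanipulated than in recolonized colon IEL. The red cell transcription factor gene Klf1 and the membrane skeleton gene Epb42 were at 2.51 and 2.48 in unmanipulated colon IEL, near the array median of 2.41. The part of red cells in the levels of Ube2c, Nusap1 and Tfdp2 was not tested.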

How the data were processed

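RNA of 4 samples, 1 per group, was hybridised to Affymetrix mouse arrays. The deposited values are log2 levels per probe set. Per the submitters' processing notes the software was Affymetrix Expression Console; not given in the sources used here: version, summarization, normalization and build. Of 41345 probe sets, 23521 listed 1 gene symbol, 1814 listed several and named no gene, and 16010 were not in the platform gene table used here. Each gene was its brightest probe set by the mean over the arrays.

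Differences were taken for the same gene between arrays. The level limit was the 50th percentile of the brighter array and the threshold 2-fold. Alternatives were limits at the 25th and 75th percentiles or none, thresholds of 1.5-fold and 3-fold, the mean of probe sets, quantile normalization, median centring and lowess (span 0.3). The taking of differences was tested on simulated data of 22180 genes for each of the 4 comparisons, with 200 planted differences and 100% recovered. The planted differences lay far above the 2-fold threshold. Their recovery does not bear on differences near 2-fold, on the level limit or on the scalings. The members and lists were chosen with earlier results of these data known. Named are all members and, of other lists, the 4 genes with the largest difference in a comparison. Sox9, Prom1, Olfm4, Smoc2, Axin2, Msi1, Ephb3, Klf1, Epb42, Fech, Slc25a37, Tfrc, Kel, Rhag, Krt20, Vil1, Spc24, Klf2, Cdkn2a, Tbp and Hprt were chosen after their values were seen. Functional roles only order the text. Python 3.11.15, pandas 2.3.3 and statsmodels 0.14.6 were used.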

Additional observations from a re-analysis of the deposited data

How the results depend on the processing

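With 1 array per group no value has a replicate check, and no paired analysis was possible because no group has a second sample. A median counts as unmoved when it changed by less than the SD of ribosomal protein genes in that comparison (0.39 to 0.57), and a count when it stayed within 1.5 times. Over the alternatives tried, 141 values were unmoved, 25 moved and 0 reversed, and a median smaller than that SD has no called direction. The unmoved values include some that an alternative could not change, so their number is no measure of stability. Against the LP-labelled array all members passed the limit, and a lower limit or none left those values as they were. The mean of probe sets altered only Rrm2 among the members, and a count of 0 that stayed 0 was taken as unmoved. In colon IEL less the LP-labelled array, the mitosis median was −2.02 and its gap to replication 1.00 at the 75th percentile limit, which keeps only brighter genes; the replication median was −0.21 under quantile normalization and −0.28 after lowess; the members lower were 13 at 3-fold, and those higher 3, 1 and 3 under quantile normalization, centring and lowess. For colon against small intestinal IEL the members higher were 5 at 1.5-fold, 0 at 3-fold, 4, 2 and 3 under those scalings and 0 with the recolonized array; the lower were 6 at 1.5-fold, 1 at 3-fold, 1 after centring and 1 with the recolonized array. For recolonized against colon IEL the mitosis median was −0.69 and the gap 0.79 at the 75th percentile limit; 4 members were higher at 1.5-fold and 1 under quantile normalization, and 0 were lower at 3-fold. For small intestinal IEL against the LP-labelled array the mitosis median was −1.74 at the 75th percentile limit and 7 members were lower at 3-fold. The causes were not tested where the construction of the alternative does not show them. Low signal limits the sizes for genes such as Birc5, Bub1, Cenpf and Foxm1, which lay below the array median on all 3 IEL arrays.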

Other observations

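Probe sets that list more than 1 gene symbol named no gene above, and 6 of them list a member. The probe set that lists Mir25 with Mcm7 was at 5.59 in unmanipulated colon IEL, 3.58 in recolonized colon IEL, 2.65 in small intestinal IEL and 2.38 on the LP-labelled array, an order unlike that of the Mcm7 probe set (2.76, 3.04, 3.04 and 3.60). The pair that list Top2a with Taf1d were at 6.04 and 6.49 on the LP-labelled array, 5.35 and 5.76 in small intestinal IEL, 3.41 and 3.52 in colon IEL and 3.68 and 3.77 in recolonized colon IEL. Rrm2 was the member with 2 single-symbol probe sets, and the dimmer one stayed between 1.13 and 1.69. These values were chosen after they were seen.

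Ccnd2, which encodes cyclin D2 of activated lymphocytes, was at 7.38 in small intestinal IEL, 6.00 in colon IEL, 6.94 in recolonized colon IEL and 6.80 on the LP-labelled array, and Ccnd1 at 3.28, 3.24, 3.43 and 5.17. Myc, a driver of cell growth, was highest in recolonized colon IEL, at 5.44 against 4.29 in unmanipulated colon IEL, 3.81 in small intestinal IEL and 4.40 on the LP-labelled array. Rbl2, the Rb relative of resting cells, was at 6.42 in small intestinal IEL and 6.15 in recolonized colon IEL, and at 4.24 in unmanipulated colon IEL and 5.44 on the LP-labelled array.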
